A study of Mus musculus with 42 samples.

Results

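Occupancy of SOX2 and of β-catenin was compared in caudal epiblast-like cells that lack the CDX transcription factors. The comparison used the 3 SOX2 and the 3 β-catenin ChIP–seq libraries of the CdxKO line after CHIR99021, 6 of the 42 samples of the series. CdxKO cells derive from mouse embryonic stem cells of the HM1 (129) background with the genotype Cdx1/2/4-/-. They were differentiated in FL medium, which is N2B27 with bFGF and the WNT secretion inhibitor LGK974, CHIR99021 was added for the last day, and cells were collected at 72 h. CHIR99021 inhibits the kinase GSK3 and stabilises β-catenin, and the wild-type (WT) and T/BraKO cells used for contrast, which lack the transcription factor T (also called Brachyury), received the same media. SOX2 libraries of WT cells kept in FL medium without CHIR99021 until 72 h and LEF1 libraries of CdxKO with CHIR99021 were also used. Each genotype was carried by its own line, so genotype and line cannot be told apart. The 3 libraries of a factor came from separate experiments, and p-values measure the spread between these libraries only.

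SOX2 is an HMG-box transcription factor of pluripotent and neural progenitor cells and often binds beside the POU factor OCT4. β-catenin does not bind DNA itself: it is the coactivator of the WNT pathway and is held on chromatin by the HMG-box factors TCF and LEF. CDX factors are homeodomain proteins of the posterior embryo that WNT signalling induces and that regulate Hox genes. The question was which cis-regulatory elements (CREs) SOX2 and β-catenin shared, and which each held alone, without CDX.

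Each library was deposited as a peak list, in which a peak is a stretch of the mm10 genome with more reads than its background, with a fold enrichment and a −log10 q. The SOX2 lists held 163926, 86068 and 172423 peaks (replicates 1 to 3) and the β-catenin lists 85949, 40630 and 140907. To set aside list length, the 20000 best peaks by −log10 q were taken from each list, where rank 1 is the best peak. Peaks tied in −log10 q at rank 20000 in all 6 lists. The value there lay between 6.68 and 7.71 for SOX2 and between 4.77 and 6.66 for β-catenin, the same to both sides of the boundary, and the fold was 6.29 to 6.53 and 5.06 to 5.68. Peaks that touched were merged into 75961 regions, and a region was called by a factor where at least 2 of its 3 libraries had a peak. Of these regions 4052 were shared by both factors (5.33% of all merged regions), 5422 were called by SOX2 with no β-catenin library (SOX2-only, 7.14%), and 4266 were called by β-catenin with no SOX2 library (β-catenin-only, 5.62%). A further 1887 SOX2 regions had 1 β-catenin library and 1781 β-catenin regions had 1 SOX2 library, and 56631 regions rested on 1 library of the 6. Shared regions made up 35.7% of the 11361 regions called by SOX2 and 40.1% of the 10099 called by β-catenin. The CdxKO line had 3 input libraries for its immunoprecipitations, and SOX2 and β-catenin lists may have been called against the same input. The part of this in the overlap was not tested.

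The best regions of each class show what the classes look like in sequence. The windows below show the plus strand of GRCm38/mm10 from 100 bp before to 100 bp after the best summit, taken from RefSeq. Capitals mark matches to the motifs counted further on: for SOX the word CCATTGT and the word CCTTTGT, for OCT ATGCAAAT, for TCF/LEF the word CTTTGAA and the word CTTTGAT, for CDX the word CAATAAA, the word CCATAAA, the word TAATAAA and the word TCATAAA, and for T-box AGGTGTGA, on either strand. A match is a description of the letters and not a site.
Mapkap1, shared, an intron, chr2:34570483-34570683: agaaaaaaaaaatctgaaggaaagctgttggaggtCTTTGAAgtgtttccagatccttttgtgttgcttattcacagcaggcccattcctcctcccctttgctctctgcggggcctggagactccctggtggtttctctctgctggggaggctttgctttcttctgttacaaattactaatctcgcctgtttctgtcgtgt
Urm1, shared, an intron, chr2:29820541-29820741: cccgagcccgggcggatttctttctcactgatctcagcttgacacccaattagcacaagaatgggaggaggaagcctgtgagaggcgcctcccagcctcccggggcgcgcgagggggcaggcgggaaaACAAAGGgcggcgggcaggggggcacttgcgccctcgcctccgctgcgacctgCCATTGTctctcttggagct
Ebf1, SOX2-only, an intron, chr11:44841784-44841984: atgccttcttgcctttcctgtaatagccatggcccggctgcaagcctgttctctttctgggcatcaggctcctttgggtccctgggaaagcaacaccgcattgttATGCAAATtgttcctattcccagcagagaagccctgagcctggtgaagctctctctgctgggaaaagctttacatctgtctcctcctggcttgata
Pkdcc, β-catenin-only, between genes, chr17:82494552-82494752: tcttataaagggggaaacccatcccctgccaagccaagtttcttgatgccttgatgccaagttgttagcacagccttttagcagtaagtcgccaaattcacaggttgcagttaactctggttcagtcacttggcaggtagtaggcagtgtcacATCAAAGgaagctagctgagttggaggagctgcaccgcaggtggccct
Klhl6, β-catenin-only, between genes, chr16:19997075-19997275: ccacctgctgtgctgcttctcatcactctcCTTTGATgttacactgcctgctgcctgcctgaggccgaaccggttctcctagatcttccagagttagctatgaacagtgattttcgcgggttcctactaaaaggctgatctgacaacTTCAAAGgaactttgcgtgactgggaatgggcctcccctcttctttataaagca
Cdx2, shared, an intron of the mutated gene, chr5:147304358-147304558: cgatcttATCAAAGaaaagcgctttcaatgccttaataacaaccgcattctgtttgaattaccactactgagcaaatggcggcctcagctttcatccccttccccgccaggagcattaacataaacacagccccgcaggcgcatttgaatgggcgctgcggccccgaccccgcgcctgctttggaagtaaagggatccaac

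The genes mutated in the line came first. At Cdx2 a shared region in an intron, with its summit 2812 bp from the gene start, had a fold enrichment of 19.3, 22.3 and 23.4 in the SOX2 libraries and of 68.1, 53.9 and 51.0 in the β-catenin libraries. Its ranks were 669, 968 and 591 for SOX2 and 156, 184 and 392 for β-catenin, so that every β-catenin library placed it higher than every SOX2 library (score difference, defined with the rank test further on, -0.64 ± 0.231 SE, limma adjusted p = 0.0405). At Cdx1 an intronic region 1249 bp from the start was called in all 6 libraries (ranks 696, 3148 and 958 for SOX2; 1927, 1457 and 1488 for β-catenin), with overlapping ranks. A region at -113 bp of Cdx1 ranked 160, 325 and 416 for β-catenin and 9728, 6117 and, in the full list, 78585 for SOX2. Cdx4 had no region of the 3 classes within 20000 bp of its start. Cdx1 had 2 shared regions in that window and Cdx2 had 4. Peak lists do not measure the mRNA or protein of the mutated genes, so they give no check of the genotype labels.

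Replicates of 1 factor overlapped more than libraries of the 2 factors. The Jaccard index, the share of the regions of either library that both hold, was 0.228 to 0.260 between SOX2 libraries, 0.200 to 0.234 between β-catenin libraries and 0.105 to 0.155 between a SOX2 and a β-catenin library. Pairs within a factor exceeded pairs across factors by 0.1003 on average (one-sided exact test over the 10 ways to divide the 6 libraries, p = 0.1, the smallest value this design allows). This excess was 0.277 with the 5000 best peaks and 0.0222 over the full lists. Even replicates of 1 factor had most of their joined regions in 1 library only.

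The factors differed in where their best peaks lay. Of the SOX2 summits 20.9%, 20.1% and 19.9% were within 1000 bp of an annotated transcription start site, a distance here called a promoter, against 14.6%, 12.7% and 12.9% of the β-catenin summits. The 3 SOX2 libraries were all above the 3 β-catenin libraries, and the difference was 6.92 points (two-sided exact permutation test, p = 0.1, the smallest for 3 against 3; adjusted p = 0.167 over 10 library measures). Over the full lists it was 1.71 points and the libraries of the factors overlapped (exact permutation test, p = 0.5), and with the 5000 best peaks it was 9.64 points. The SOX motif was within 100 bp of 24.8% ± 1.82 (SD, n = 3) of the SOX2 summits and of 12.03% ± 0.971 of the β-catenin summits. The TCF/LEF motif was near 12.9% ± 0.192 of the SOX2 summits and 29.2% ± 1.55 of the β-catenin summits, again with no overlap between the libraries. In windows moved by 1000 bp these motifs stood at 7.02% and 7.06% (SOX) and at 8.02% and 7.94% (TCF/LEF), so both factors lay above this background for both motifs. The size of the differences followed list length: the SOX difference was 5.04 points over the full lists and 18.2 with the 5000 best peaks, against 12.8 here, and the TCF/LEF difference was -6.60 and -35.2 points, against -16.3.

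**Figure D1:**
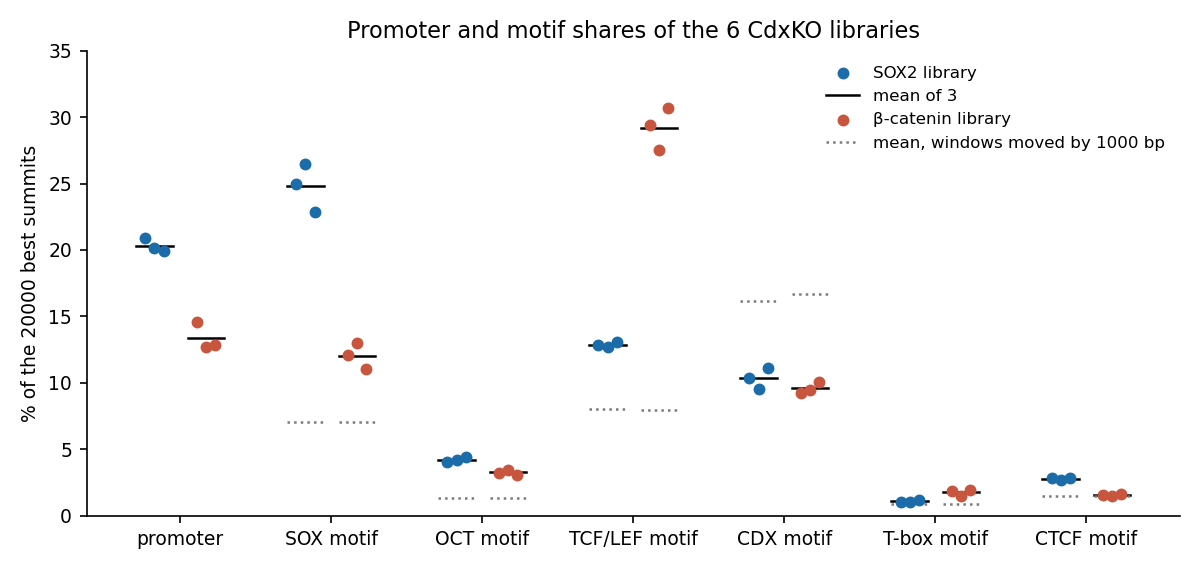
Percent of the 20000 best summits of each library that lay within 1000 bp of a start site or had a motif within 100 bp (y axis), for the 3 SOX2 (blue) and 3 β-catenin (red) libraries of CdxKO, with the mean of 3 as a black line and the mean of windows moved by 1000 bp dotted. The largest gap was that of the TCF/LEF motif (12.9% against 29.2%), and the CDX motif lay below its moved windows in both factors. The WT and T/BraKO libraries, not shown here, also had the CDX motif below their moved windows. With CHIR99021 their shares were higher, at 12.015% to 16.015%, against 9.22% to 11.1% in the CdxKO libraries. In T/BraKO β-catenin replicate 3 the share was close to its moved windows (15.945% against 16.11%). The SOX2 libraries of WT without CHIR99021 had 8.6% to 10.915%. The difference between lines in this share was not tested.

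The remaining motifs were rarer. The OCT motif was near 4.23% ± 0.158 of the SOX2 and 3.25% ± 0.208 of the β-catenin summits (n = 3 each), with moved windows at 1.32% for each. The T-box motif, bound by T and its relatives, went the other way, with 1.08% ± 0.104 for SOX2 and 1.76% ± 0.219 for β-catenin. The motif of CTCF, an insulator protein of neither pathway, was near 2.79% ± 0.0681 of the SOX2 and 1.56% ± 0.0797 of the β-catenin summits. None of these pairs of groups overlapped, and each had the same p of 0.1. Over the full lists the OCT difference of 0.975 points became 0.0613 (exact p = 0.8), the T-box difference -0.292 and the CTCF difference 0.596 points. The CDX motif was near 10.3% ± 0.781 of the SOX2 and 9.59% ± 0.451 of the β-catenin summits, groups that overlapped (exact p = 0.2), and both were below the moved windows at 16.2% and 16.7%. The GC content of the windows averaged 49.4% ± 0.619 and 49.3% ± 0.594 and did not separate the factors (exact p = 1).

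Rank within the list went with sharing. Of the 1000 best SOX2 peaks 73.7% ± 1.57 (SD, n = 3) lay in a shared region, and of the 1000 best β-catenin peaks 72.2% ± 6.81. In the lower-ranked 10000 of the 20000 the values were 6.49% ± 0.385 and 5.07% ± 0.180. Ranks formed the classes, so these shares are a description. The TCF/LEF motif, which formed no class, fell with rank in the β-catenin lists from 65.0% ± 4.58 of the 1000 best to 18.1% ± 0.711 of the lower-ranked 10000. The SOX motif in the SOX2 lists went from 37.2% ± 2.51 to 19.3% ± 1.65 over the same bins. The 1000 best SOX2 peaks were at promoters in 18.9% ± 2.57 of cases and the 1000 best β-catenin peaks in 7.13% ± 0.709, and in each rank bin the 3 SOX2 libraries were above the 3 β-catenin libraries.

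**Figure D2:**
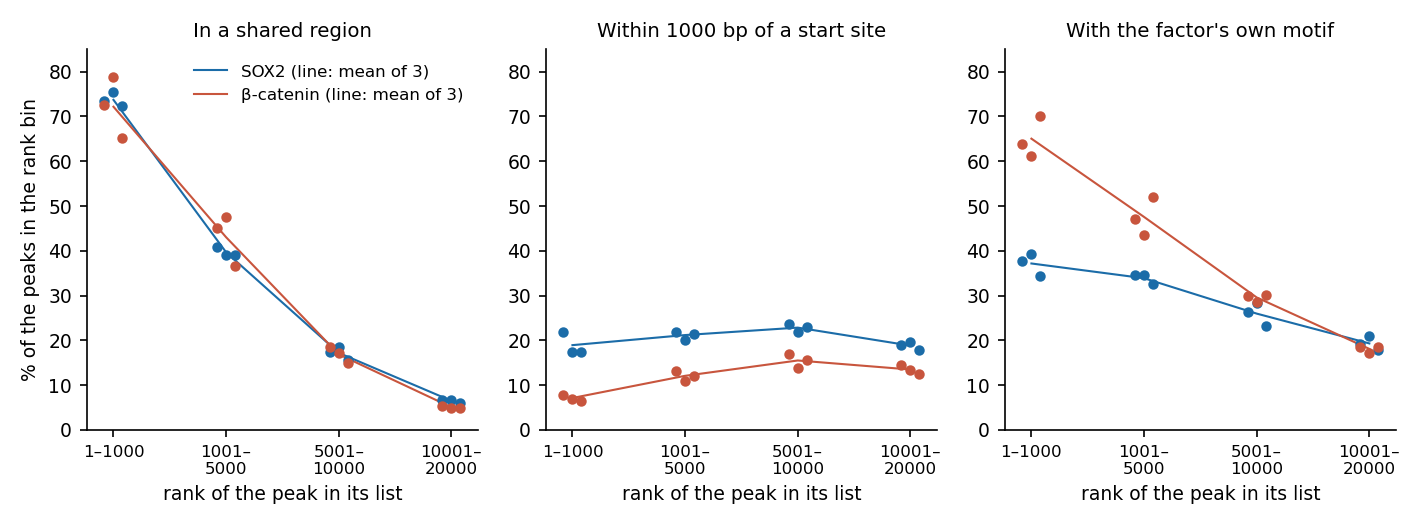
Percent of the peaks of a rank bin (x axis, rank by −log10 q within a list) that lay in a shared region, at a promoter, or near the motif of their own factor (SOX for SOX2, TCF/LEF for β-catenin), with 1 point per library and a line through the means of 3. Sharing fell from above 70% to about 5% in both factors, while promoter shares stayed higher for SOX2 in every bin.

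Shared and factor-specific regions differed in position and in sequence. Promoters held 14.0% of the shared regions (95% Wilson interval 13.01 to 15.1, counting error only, here and below), 28.6% of the SOX2-only regions (27.5 to 29.9) and 13.9% of the β-catenin-only regions (12.9 to 15.02), beside 16.05% of all merged regions. The median distance to a start site was 11099 bp for shared, 6010 bp for SOX2-only and 11998 bp for β-catenin-only regions. Regions over 50000 bp from any start site made up 15.5%, 11.1% and 16.6% of the classes. The regions of a class lie in the same 6 libraries and are not replicates, so no test was made between classes.

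The SOX and TCF/LEF motifs differed between the classes. The SOX motif was near 27.2% of the shared (25.9 to 28.6), 33.2% of the SOX2-only (31.9 to 34.4) and 7.13% of the β-catenin-only summits (6.39 to 7.94), the last beside 7.15% in its moved windows. The TCF/LEF motif was near 33.5% (32.0 to 34.9), 6.33% (5.71 to 7.01) and 52.0% (50.5 to 53.5). Shared regions therefore held both motifs above their surroundings, whereas each factor-specific class held that of its own factor. The SOX and the TCF/LEF motif stood together in 7.82% of the shared, 1.73% of the SOX2-only and 3.54% of the β-catenin-only windows. Neither was found in 47.1%, 62.2% and 44.4%. Of all merged regions 15.4% had the SOX motif, 16.7% the TCF/LEF motif, 2.21% both and 70.2% neither. Whether the motifs stood together more often than their single shares would give was not tested. The OCT motif was near 6.64%, 5.11% and 3.00% of the summits and the CDX motif near 8.17%, 8.28% and 7.36%, the latter below all merged regions at 11.02%.

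**Figure D3:**
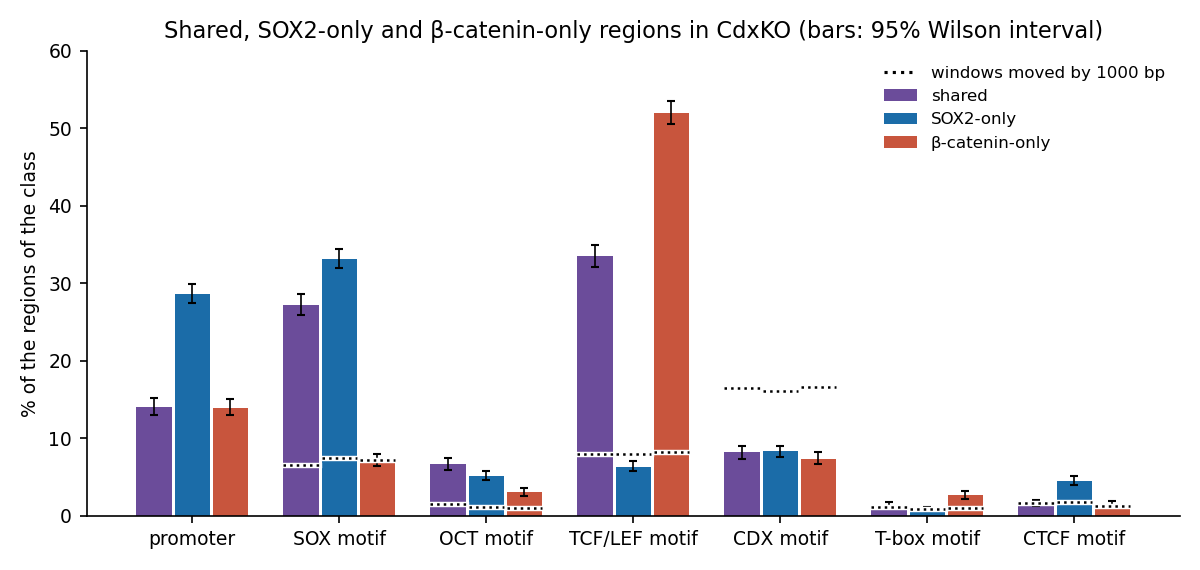
Percent of the 4052 shared (purple), 5422 SOX2-only (blue) and 4266 β-catenin-only (red) regions with a summit at a promoter or a motif within 100 bp of the summit (y axis), with 95% Wilson intervals that cover counting error only and dotted lines for windows moved by 1000 bp. SOX2-only regions stood out at promoters (28.6%), and the TCF/LEF motif ranged from 6.33% to 52.0% between the factor-specific classes.

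Promoter regions and other regions of a class were then set side by side. The SOX motif was near 33.3% of the 1553 SOX2-only summits at promoters and 33.1% of the 3869 elsewhere. At β-catenin-only regions the TCF/LEF motif was rarer at promoters (37.8% of 595 against 54.3% of 3671), and the shared regions showed the same order (23.9% of 569 against 35.03% of 3483). The OCT motif was also rarer at promoters in SOX2-only regions (2.58% against 6.13%). Median GC content was 57.2%, 58.2% and 58.7% at promoters and 48.8%, 48.3% and 49.3% elsewhere for shared, SOX2-only and β-catenin-only regions.

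At shared regions the summits of the 2 factors lay close together. The best SOX2 and the best β-catenin summit were a median of 34 bp apart (quartiles 14 and 73), and 81.2% of the 4052 pairs were within 100 bp. At the 1924 regions called in all 6 libraries, the median distance was 24 to 27 bp between SOX2 libraries, 21 to 25 bp between β-catenin libraries and 33 to 39 bp across factors. Distances across factors were larger by 11 bp (one-sided exact test over 10 splits, p = 0.1, the smallest possible), a comparison added after the classes had been seen. Windows on the SOX2 summits of shared regions had the SOX motif in 28.8% and the TCF/LEF motif in 29.6%, and windows on the β-catenin summits in 25.1% and 34.995%. Shared regions were also wide, with a median of 627 bp against 356 bp for SOX2-only and 336 bp for β-catenin-only regions. Width is that of all peaks merged into a region, and a shared region needs peaks of both factors. Its greater width therefore follows in part from the merging. The part of width in the sharing was not tested.

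Regions given to 1 factor at this threshold were not empty of the other in the full lists. Of the SOX2-only regions 64.0% had no peak in any full β-catenin list, 26.9% had a peak in 1 list and 1.24% in all 3. Of the β-catenin-only regions 43.2% had no peak in any full SOX2 list and 5.53% had a peak in all 3, beside SOX2 lists that were longer. LEF1, a DNA-binding partner of β-catenin, was measured in the same line and was not used to form the classes. At least 2 of 3 CdxKO LEF1 libraries had 1 of their 20000 best peaks in 30.7% of the shared regions (29.3 to 32.1), in 12.2% of the β-catenin-only regions (11.2 to 13.2) and in 0.277% of the SOX2-only regions (0.168 to 0.456), beside 3.07% of all merged regions.

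Libraries of other lines and media gave the classes independent values. SOX2 in WT cells without CHIR99021 was called, by the same rule, at 67.1% of the shared, 63.8% of the SOX2-only and 3.91% of the β-catenin-only regions, beside 14.98% of all merged regions. In T/BraKO with CHIR99021, SOX2 was called at 75.6%, 51.5% and 4.88% of the 3 classes and β-catenin at 85.2%, 8.50% and 54.6%, beside 12.4% and 13.9% of all merged regions. In WT with CHIR99021, SOX2 was called at 55.8%, 24.8% and 1.71%, and β-catenin at 79.1%, 4.50% and 53.2%, beside 6.67% and 11.3%. By this rule SOX2 had 5577 regions in WT against 11361 in CdxKO, and WT SOX2 replicate 1 stood apart with a list of 1008922 peaks. Of the 4052 CdxKO shared regions 48.4% were also shared in WT and 68.4% in T/BraKO. Counted from the other side, 73.5% of the 2656 shared regions of WT and 56.8% of the 4854 of T/BraKO were shared in CdxKO.

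The CDX motif was more frequent in regions shared in another genotype only than in those shared in CdxKO as well. It was near 27.9% (24.8 to 31.4) of the 705 WT shared regions that were not shared in CdxKO and near 10.3% (9.03 to 11.7) of the 1951 that were. The corresponding values against T/BraKO were 20.7% (19.02 to 22.5) of 2097 and 9.25% (8.22 to 10.4) of 2757. Among the CdxKO shared regions the motif was near 6.79% of those not shared in WT and 9.64% of those that were.

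The last comparison across genotypes asked whether the difference between the factors was itself different in CdxKO. The promoter share of SOX2 exceeded that of β-catenin by 6.30, 7.44 and 7.01 points in the 3 CdxKO replicates, by -4.83, -0.94 and 5.38 in WT and by 0.345, 5.91 and 3.34 in T/BraKO. CdxKO was above every WT and T/BraKO replicate, by 5.38 points on average (two-sided exact permutation test over 84 splits, p = 0.0476), a difference that did not pass after adjustment over 6 measures (adjusted p = 0.190). With the 5000 best peaks it was 2.57 points and over the full lists 3.52. The SOX motif gap was 12.8 ± 0.849 points in CdxKO (SD, n = 3), 5.56 ± 3.83 in WT and 10.3 ± 3.22 in T/BraKO (exact p = 0.0714, adjusted p = 0.190). The TCF/LEF gap was -16.3 ± 1.37, -16.1 ± 2.24 and -19.4 ± 3.32 points (exact p = 0.512), and the Jaccard index of SOX2 with β-catenin was 0.133 ± 0.0228, 0.0853 ± 0.0256 and 0.159 ± 0.0186 (exact p = 0.726). The promoter and SOX motif gaps varied most between replicates in WT, where the SOX2 lists held 205833 to 1008922 peaks.

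Some CREs were held by both factors but placed far apart in their lists. At the 1924 regions called in all 6 libraries, ranks were turned into normal scores within each library, on which a higher score is a better rank, and SOX2 was tested against β-catenin with limma. SOX2 was higher at 387 regions (20.1% of those tested) and β-catenin at 372 (19.3%; adjusted p under 0.05). Scores correlated at 0.703 on average between SOX2 libraries, 0.777 between β-catenin libraries and 0.200 across factors, as a description over 1924 regions that share their libraries.

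**Figure D4:**
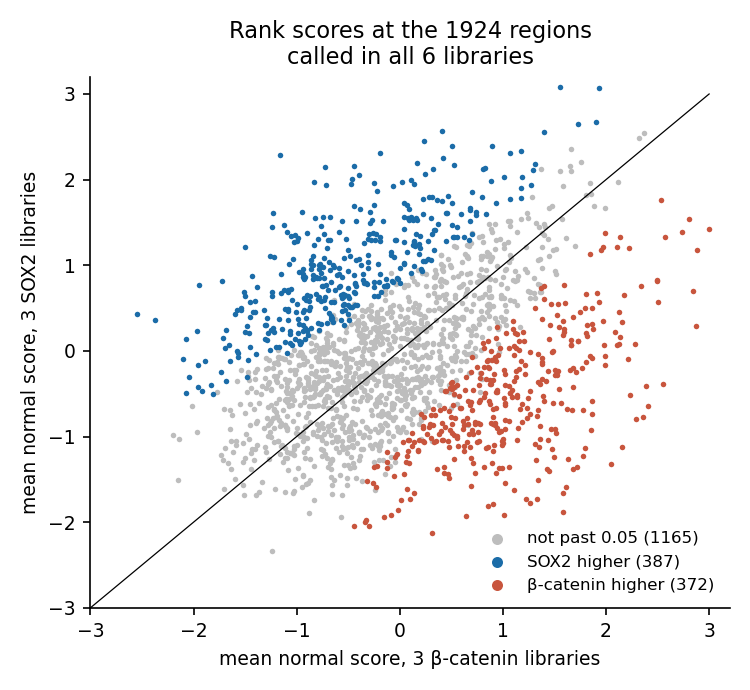
Mean normal score of rank in the 3 β-catenin libraries (x axis) and in the 3 SOX2 libraries (y axis) at the 1924 regions called in all 6 CdxKO libraries, 1 point per region. The 387 regions in blue ranked higher for SOX2 and the 372 in red higher for β-catenin (limma, adjusted p under 0.05), and the black line marks equal scores.

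The largest difference towards SOX2 was in an intron of Nes, which encodes the neural progenitor intermediate filament nestin. This region, 3409 bp from the gene start, ranked 55, 31 and 12 in the SOX2 libraries and 10411, 3698 and 7866 in the β-catenin libraries, a score difference of 3.45 ± 0.312 (SE; limma adjusted p = 6.7e-06). Regions nearest to Stab2, Kcnj16, Abcb5 and Zeb2 followed, with score differences of 2.81 to 2.98. The largest difference towards β-catenin was in an intron of Ccser1, with ranks of 72, 408 and 89 for β-catenin and 19682, 8391 and 10809 for SOX2 (score difference -3.46 ± 0.469, limma adjusted p = 8.4e-05). The next regions lay nearest to Pcmtd1, Klhl32, Hnf4g and Pgr, at -3.37 to -3.21. All 5 windows on the β-catenin side held the TCF/LEF motif, and of the 5 on the SOX2 side 1 held the SOX and 1 the OCT motif.

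Motifs and other libraries separated the regions of this test. The SOX motif was near 40.6% (35.8 to 45.5) of the 387 regions higher for SOX2 and 15.6% (12.3 to 19.6) of the 372 higher for β-catenin. The TCF/LEF motif was near 17.3% (13.9 to 21.4) and 66.7% (61.7 to 71.3), and the OCT motif near 11.1% and 2.96%. LEF1 in CdxKO was called at 22.2% and 80.1%, and SOX2 in WT cells without CHIR99021 at 96.6% and 50.3%. Promoters made up 16.5% (13.2 to 20.6) and 8.33% (5.93 to 11.6). Over all 1924 regions tested, the SOX motif was near 29.0%, the TCF/LEF motif near 37.2% and the OCT motif near 7.59%. Of the same regions LEF1 was called at 43.97% and SOX2 in WT without CHIR99021 at 76.2%, and 12.5% were at promoters. In WT libraries scored at the same regions, SOX2 stood above β-catenin at 97.4% of the regions higher for SOX2 and 1.08% of those higher for β-catenin, beside 50.8% of the 1165 regions past neither threshold. In T/BraKO these shares were 98.2%, 8.87% and 49.96%.

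Gene lists were read within 20000 bp of the gene start. Over all 21911 protein-coding genes 8.48% had a shared region there, 17.1% a SOX2-only region and 9.28% a β-catenin-only region. Genes of WNT feedback and known WNT targets had a shared region in 14 of 25 cases, a SOX2-only region in 3 and a β-catenin-only region in 6. Sp5, a zinc-finger gene induced by WNT, had the best shared region of the list, 12 bp from its start, with a fold of 48.8, 58.2 and 46.4 for SOX2 and of 143, 148 and 169 for β-catenin. SOX2 ranked it 102, 67 and 117 and β-catenin 15, 7 and 15, a score difference of -0.77 ± 0.189 (limma adjusted p = 0.00499). Axin2, the feedback inhibitor of the pathway, had a shared region 893 bp from its start that β-catenin ranked 121, 282 and 214 and SOX2 783, 2472 and 2611. Lef1 had one at -4373 bp, at ranks of 233, 189 and 228 for β-catenin and 2058, 507 and 634 for SOX2, and Wnt8a had one as well. At Sp5, Axin2 (limma adjusted p = 0.00234) and Lef1 (limma adjusted p = 0.0306) every β-catenin library was ahead of every SOX2 library and the test passed, whereas at Wnt8a the ranks overlapped and it did not (limma adjusted p = 0.301).

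Regions of 1 factor were found at other genes of this list, some of which also had shared regions. Tcf7, which encodes the TCF family member TCF1, had a β-catenin-only region at -357 bp with a fold of 26.1, 19.4 and 27.1 and no peak there in the full SOX2 lists. Within 20000 bp of its start Tcf7 also had a shared region. The best peaks in that window ranked 22, 73 and 29 for SOX2 and 789, 1084 and 881 for β-catenin. Ccnd1, the cyclin D1 gene, had a β-catenin-only region at 22 bp. β-catenin ranked it 2062, 2710 and 2293, and in the full SOX2 lists it stood at 62496, 37972 and 148081. The SOX2-only regions near Sp8 and Tcf7l1 had no peak in the full β-catenin lists. Near Sp8 the folds were 12.9, 13.8 and 20.8 for SOX2. Sp8 also had 3 shared regions and 1 β-catenin-only region within 20000 bp of its start, and Tcf7l1 had 1 shared region.

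Streak and mesoderm genes had the highest share of genes near a shared region among the lists of more than 3 genes. A shared region was near 16 of 23, a β-catenin-only region near 13 and a SOX2-only region near 7. T had a shared region at -229 bp with a fold of 17.4, 14.6 and 15.7 for SOX2 and of 56.3, 39.6 and 47.4 for β-catenin (score difference -1.05 ± 0.256, limma adjusted p = 0.00498). Nkx1-2, a marker of the caudal epiblast, had one at -16929 bp, in an intron of Fgfr2 and Lhpp by the annotation, at ranks of 318, 65 and 153 for SOX2 and 215, 274 and 444 for β-catenin, and the ranks of the factors overlapped. The endoderm and node gene Foxa2 was alike in this respect (645, 1198 and 1537; 572, 785 and 1415). At Dll1, a Notch ligand, SOX2 ranked its region 24, 66 and 65 and β-catenin 1764, 5549 and 3211 (score difference 2.45 ± 0.314, limma adjusted p = 5.6e-05).

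Other genes of the list had regions of 1 factor, and some of these genes had shared regions as well. Mixl1, a homeobox gene of the primitive streak, had a β-catenin-only region at -10515 bp with a fold of 37.6, 19.1 and 44.0 for β-catenin, and 1 of the 3 full SOX2 lists had a peak there, at a fold of 5.82. Evx1 had a β-catenin-only region 19287 bp from its start with a fold of 23.8, 25.0 and 25.4. The segmentation clock gene Hes7 had a SOX2-only region at 4766 bp with a fold of 10.7, 19.01 and 12.4 and no peak there in the full β-catenin lists. Within 20000 bp of its start Hes7 also had a shared region. The best peaks in that window ranked 11, 53 and 98 for β-catenin and 1954, 939 and 1167 for SOX2. Near Snai1, an inducer of epithelial-mesenchymal transition, a SOX2-only region had a fold of 9.71, 9.71 and 10.1. Evx1 had 2 shared regions within 20000 bp of its start and Snai1 had 1.

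Hox genes lie in clusters, so several genes can be counted for 1 region. Anterior Hox genes had a shared region in 6 of 15 cases, resting on 9 regions, and a SOX2-only region in 11, resting on 11. Trunk Hox genes had a shared region in 1 of 12 and a SOX2-only region in 10, resting on 8 regions, and posterior Hox genes in 3 and 12 of 12, resting on 2 and 6 regions. β-catenin-only regions were near 6 of 15, 6 of 12 and 7 of 12, resting on 6, 4 and 2 regions. The best shared Hox region lay at -197 bp of Hoxb1 and ranked 60, 128 and 11 for SOX2 and 144, 146 and 182 for β-catenin, with no test call (limma adjusted p = 0.106). A shared region at -2909 bp of Hoxc10 had ranks of 1700, 1604 and 2111 for SOX2 and 2696, 2467 and 2001 for β-catenin, and a SOX2-only region at -272 bp ranked 5580, 2436 and 1779. Hoxb13 had a shared region at -4013 bp that β-catenin ranked 484, 484 and 771 and SOX2 4691, 7147 and 3284 (limma adjusted p = 0.00114).

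Pluripotency genes had a shared region in 12 of 23 cases, a SOX2-only region in 11 and a β-catenin-only region in 3. At Lin28a, an RNA-binding protein of pluripotent cells, the region at -54 bp ranked 38, 245 and 71 for SOX2 and 388, 696 and 1080 for β-catenin (limma adjusted p = 0.00664). At Pou5f1, the gene of OCT4, the region at -890 bp ranked 111, 56 and 711 for SOX2 and 1042, 621 and 1805 for β-catenin (limma adjusted p = 0.0213). A shared region 18179 bp from the start of Sox2 itself ranked 1464, 630 and 336 for SOX2 and 2754, 3074 and 1675 for β-catenin (limma adjusted p = 0.0402). The 3 score differences were 0.92 to 1.00 and all towards SOX2. Klf4 had a shared region at -131 bp without SOX2 replicate 3, where the full list placed it at 107501. Utf1 had a SOX2-only region 1896 bp from its start with a fold of 10.4, 29.6 and 8.63.

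Neural genes had a shared region in 15 of 37 cases, a SOX2-only region in 17 and a β-catenin-only region in 8. Gbx2, a homeobox gene of the hindbrain border and caudal epiblast, had a shared region at -4874 bp with a fold of 14.0, 17.96 and 26.7 for SOX2 and of 110, 127 and 180 for β-catenin (score difference -1.93 ± 0.228, limma adjusted p = 3.3e-05). En2 had a shared region with ranks of 492, 236 and 1355 for SOX2 and a SOX2-only region at 2745, 3068 and 4523, and Hes5, a Notch target, had a SOX2-only region at -150 bp at 2340, 4284 and 3755. All 3 full β-catenin lists held a peak at this Hes5 region, at 32841, 24155 and 126776. Nkx6-1 had a β-catenin-only region 346 bp from its start with a fold of 26.5, 20.7 and 30.7, and Meis2 had one at -24 bp with a fold of 21.9, 12.1 and 9.66. All 3 full SOX2 lists held a peak at this Nkx6-1 region, at 65128, 26626 and 103074, and 1 held a peak at that of Meis2, at 134402. The 16 housekeeping genes had a shared region in 1 case, a SOX2-only region in 4 and a β-catenin-only region in 3. Of 20 genes of other tissues 1 had a shared region, 1 a SOX2-only region and none a β-catenin-only region, and the shared regions counted for that gene, Pdgfrb, were those at Cdx1.

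**Figure D5:**
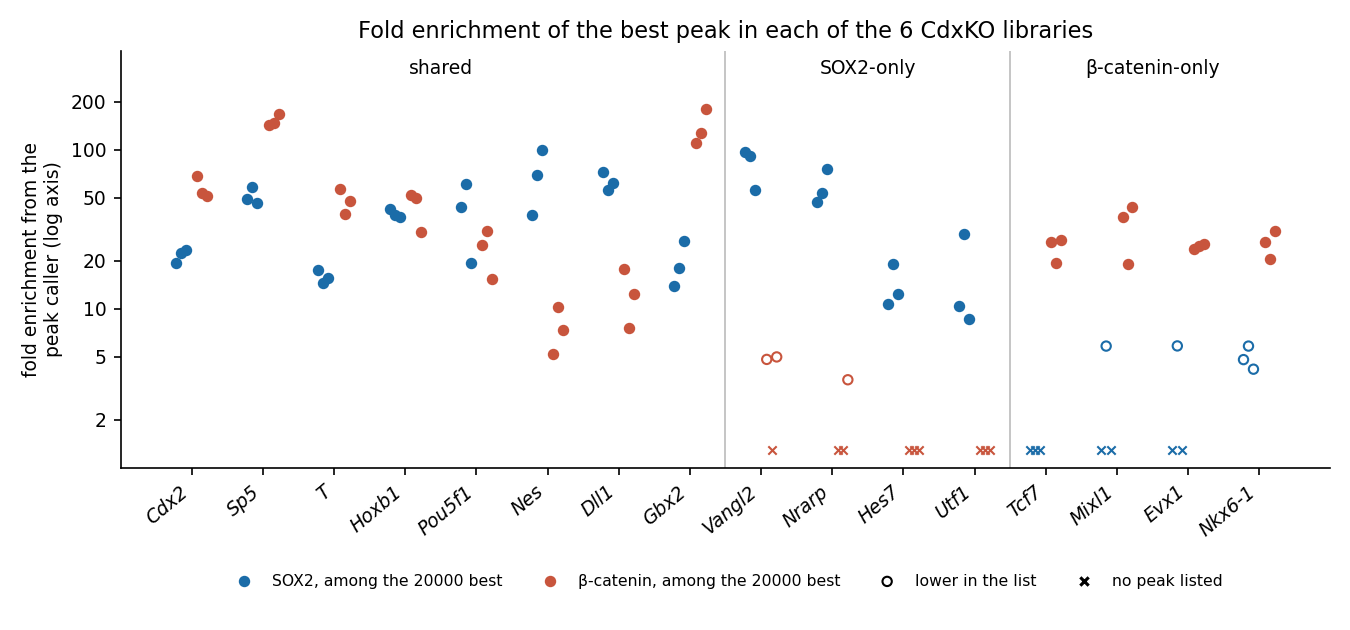
Fold enrichment from the peak caller (log axis) of the best peak of each of the 6 CdxKO libraries at 16 named regions, grouped by class, with SOX2 in blue and β-catenin in red. Filled points were among the 20000 best peaks, open points lay lower in the full list, and crosses mark libraries with no listed peak; Gbx2 and Sp5 were led by β-catenin and Nes and Dll1 by SOX2.

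The best regions of the factor-specific classes lay near other genes. Among SOX2-only regions, Vangl2, a planar polarity gene, led with a fold of 97.1, 91.3 and 56.1 for SOX2 1022 bp from its start, and 2 of the full β-catenin lists held a peak there, at 4.80 and 4.98. Regions near Ebf1, Nrarp, Ccdc150 and Gclm followed, and those of Nrarp, a Notch feedback gene, and Ccdc150 were both at -60 bp. The best β-catenin-only region lay far from any gene start, -720640 bp from Pkdcc, with a fold of 95.2, 99.1 and 92.6, and was followed by regions near Klhl6, Grik1, Tas1r2 and Ripply2. All 5 SOX2-only regions were in the 3 lists of SOX2 in WT without CHIR99021, and all 5 β-catenin-only regions were in the 3 LEF1 lists of CdxKO. These regions were the best of their classes. Called in at least 2 of 3 libraries, that SOX2 held 63.8% of all SOX2-only regions, beside 14.98% of all merged regions. LEF1 held 12.2% of all β-catenin-only regions, beside 3.07%.

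Several regions called by β-catenin, some of them shared with SOX2, carried repeated sequence. The windows of Pkdcc and of Ccser1, on 2 chromosomes, shared an identical run of 46 bases that occurs 2 times in the genome:
Run of Pkdcc and Ccser1: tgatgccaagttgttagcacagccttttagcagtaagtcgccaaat
Over all classes, 18.2% of the shared (17.01 to 19.4), 13.2% of the SOX2-only (12.3 to 14.1) and 14.9% of the β-catenin-only windows (13.9 to 16.03) held a run of 31 bases that also stood in another window of the 3 classes. The 3 runs held by most windows, chosen after the windows had been seen, with tandem repeats of up to 6 bases left aside, were as follows, and capitals mark a TCF/LEF match:
Run 1: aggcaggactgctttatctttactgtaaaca
Run 2: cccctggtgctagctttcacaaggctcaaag
Run 3: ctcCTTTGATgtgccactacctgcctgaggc
Run 1 stood in 60 windows, of which 43 were shared and 17 β-catenin-only, and has 98 copies in the genome. Run 2 stood in 54 windows (32 shared and 22 β-catenin-only; 127 copies) and run 3 in 37 (4 shared and 33 β-catenin-only; 60 copies). None of the 3 runs stood in a SOX2-only window. The β-catenin libraries of WT called 51, 49 and 32 of the windows with runs 1, 2 and 3. The SOX2 libraries called 26, 11 and 0 of them in WT with CHIR99021 and 27, 18 and 0 in WT without it. In T/BraKO the SOX2 libraries called 16, 13 and 0. WT β-catenin was called at 79.1% of all shared, 53.2% of all β-catenin-only and 11.3% of all merged regions. For SOX2 these shares were 55.8%, 1.71% and 6.67% in WT with CHIR99021 and 67.1%, 3.91% and 14.98% without it. In T/BraKO they were 75.6%, 4.88% and 12.4%. Whether windows with a run differed from their class was not tested. How reads that map to several copies entered the lists was not tested.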

How the data were processed

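ChIP–seq peak lists of SOX2, β-catenin and, in CdxKO, LEF1 made up the 24 lists used of 30 deposited, with 3 libraries per group; 12 input samples were without lists here and 6 LEF1 lists of WT and T/BraKO were not used. The authors trimmed and aligned the reads to mm10, filtered them and called narrow peaks with MACS2 per library; read depth was not analysed here. The deposited columns hold a fold enrichment (a ratio to background) and the −log10 p-value and −log10 q-value of the peak, and each list was ranked by −log10 q. From these values, the 20000 best peaks were merged where they shared 1 bp, and a region was called in at least 2 of 3 libraries. Start sites came from GENCODE M21 basic and sequence from RefSeq GRCm38. Library groups were set against each other by exact permutation (two-sided), list overlap with a one-sided exact test, and rank with limma 3.58.1 on normal scores, adjusted by Benjamini-Hochberg over all 1924 regions. Wilson 95% intervals cover counting error only. Scripts ran in Python 3.11.15 with scipy 1.17.1 and pysam 0.24.0, and R 4.3.3, and were tested on simulated data. Named genes were those mutated in CdxKO; of each list the 4 genes with the best mean rank of a shared region and the 2 best of each factor-only class; the 5 best regions of each class; and the 5 largest score differences in each direction. Some regions under this rule are not reported here. Sequences were printed for some of these regions, none that touches an exon. The comparison, its lists and tests were chosen with earlier results of these data known, and summit distances and repeated runs were added after seeing the data. Alternatives changed the number of best peaks, the ranking column, merging, promoter and motif distances, gene windows and the libraries used.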

Additional observations from a re-analysis of the deposited data

Results flagged for a closer look

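The share of summits with the CDX motif was compared between SOX2 and β-catenin libraries of the same replicate number. SOX2 minus β-catenin was 1.18, 0.09 and 1.01 points in the 3 CdxKO replicates and -0.005, -0.76 and -0.27 points in the 3 T/BraKO replicates. This result stood out because the CdxKO values were all positive and the T/BraKO values all negative, with means that differed by 1.105 points. The signs rest on pairing by replicate number, and the replicate numbers did not meet the rule for pairing. Without pairing the factors overlapped in both lines. The shares were 9.54% to 11.1% for SOX2 and 9.22% to 10.09% for β-catenin in CdxKO. In T/BraKO they were 12.015% to 15.675% and 12.775% to 15.945%. A direction in either line is therefore not shown. The difference between these 2 lines was not tested. In WT the values were 1.89, 1.91 and 0.195 points.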

How the results depend on the processing

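Of the main values recomputed under alternatives, 4 reversed and 38 values without a test moved beyond their spread or, for counts, beyond 1.5 times. The other 251 kept their direction and their side of the threshold or stayed within these limits, which for tested values does not bound their size: list length changed the library differences several-fold, as given beside them, and the CDX difference of 0.76 points was 2.18 over full lists and 0.0783 within 250 bp. Exact tests of 3 libraries against 3, the list overlap test and the sign flips could not reach 0.05, with a smallest p of 0.1 or 0.25. For these tests the side of the threshold was fixed by the design and only the direction could change. The class sizes followed the peak and call thresholds. With the 5000 best peaks there were 1473 shared, 2218 SOX2-only and 2343 β-catenin-only regions, with full lists 10018, 19963 and 6549, and with calls in 3 of 3 libraries 1924, 2050 and 1808. Leaving out 1 CdxKO library, where both remaining libraries of its factor had to hold a peak, gave 2933 to 3518 shared, 3035 to 6374 SOX2-only and 2466 to 4939 β-catenin-only regions. The lowest SOX2-only count came without SOX2 replicate 2 (without replicate 1 it was 3150 and without replicate 3 it was 3413), and β-catenin-only regions fell to 2466, 2830 and 2629 without β-catenin replicates 1, 2 and 3. Promoter shares of shared and β-catenin-only regions were 11.6% and 11.01% with the 5000 best peaks, and those of shared and SOX2-only regions 20.3% and 23.0% with full lists. For shared, SOX2-only and β-catenin-only regions they were 12.5%, 30.2% and 11.8% with calls in 3 of 3 libraries, 9.92%, 22.7% and 9.85% within 500 bp, and 34.2%, 47.4% and 31.4% within 5000 bp. Leaving out a library gave 12.9% to 14.1%, 26.8% to 30.3% and 12.003% to 14.1%. The rank test on full lists called 775 and 760 of 4366 regions, and without 1 library 301 to 409 regions higher for SOX2 and 272 to 429 higher for β-catenin. Over all gene lists, 86 genes had a β-catenin-only region within 50000 bp, and with calls in 3 of 3 libraries 45, 24 and 30 genes had a shared, SOX2-only and β-catenin-only region. A wider window or a stricter call also changes the share over all protein-coding genes, which is not given here. These counts therefore describe the settings and are no result about the listed genes. The genotype difference in TCF/LEF reversed to -2.12 points with the 5000 best peaks and to -0.197 against WT alone, and that in CDX to -0.572 against WT alone. That in the Jaccard index ranged from -0.000497 to 0.0229 when 1 replicate was left out, an alternative added after seeing the data for WT and T/BraKO, and was negative without WT replicate 2. Apart from the construction of the alternatives, the cause was not tested.

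The replicate numbers did not meet the rule for pairing: deviations of SOX2 and β-catenin libraries of the same number correlated at 0.0553, 0.237 and 0.232, although each library correlated best with its own number. With the replicate block the rank test called 443 and 424 regions, among them all 387 and 372 reported. The promoter difference of 6.92 points then had p = 0.25 (exact sign-flip test, the smallest possible), and without the block the genotype difference in promoter share had p = 0.0339 (exact permutation test) before adjustment.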
